A study of Mus musculus with 6 samples.

Results

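The genes of the mitochondrial ribosome were examined in the livers of mice with and without hepatocyte LSD1. A row of the gene table was taken as a member where its symbol began with Mrpl or Mrps followed by a number. This rule found 78 genes of 27179 rows, 49 named for the large subunit (Mrpl) and 29 for the small subunit (Mrps). The study sequenced poly-A RNA from liver in 3 mice of each group, Control and LSD1-LKO, all C57BL/6. All 6 carried Lsd1 flanked by loxP sites and were injected through the tail vein at 6 to 7 weeks of age. LSD1-LKO mice received AAV8-TBG-Cre, a viral vector in which the hepatocyte-specific Tbg promoter drives Cre recombinase, and Control mice received AAV8-TBG-GFP. Both groups were put on a high-fat diet 1 week later. The series description gives 12 weeks on this diet and the methods of the study give a shorter time, so its length is uncertain, and the labels give no sex.

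The table holds 1 level for each gene, the mean normalized read count that DESeq2 computed over all 6 livers, with no value for a single liver or for a group. Every level below therefore describes Control and LSD1-LKO livers together and has no replicate error. LSD1-LKO was not compared with Control here, because the remaining measurement columns hold the authors' own comparison, which was not used. The depth of each library is unknown. To make levels readable, each mean was scaled so that all rows of the table sum to 1000000 (CPM), and CPM was divided by the median length of the gene's protein-coding transcripts (CPM per kb) wherever genes are set against each other. Genes are not replicates, and no test was run between groups of genes.

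The mitochondrial ribosome translates the few messages of the mitochondrial genome, which encode core subunits of the respiratory chain and ATP synthase. Its ribosomal RNAs come from the mitochondrial genome, whereas all of its proteins are encoded in the nucleus, made in the cytosol and imported. Compared with its bacterial relatives it has lost RNA and gained proteins, so some of its subunits have bacterial homologs and others are mitochondria-specific. The small subunit reads the message, and the large subunit joins amino acids and is held at the inner membrane, where the products are inserted. Hepatocytes are rich in mitochondria. The hepatocyte markers were high in the table, from 731 CPM for Hnf4a to 77578 CPM for Alb. Markers of cholangiocytes were between 0.948 and 3.29 CPM, those of Kupffer cells between 3.92 and 52.9, and those of stellate cells between 3.49 and 165. Endothelial markers were between 12.6 and 34.2 CPM and lymphocyte markers between 0.176 and 5.51. Bulk liver RNA cannot tell the level in hepatocytes from that in the other cells.

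All 78 members had a level above 0. Of these, 71 (91.0%) reached 10 CPM, as did 7531 of the 18442 genes with a level above 0 (40.8%). The members summed to 1913 CPM, or 0.191% of the total. Their median was 20.9 CPM per kb with quartiles of 9.73 and 32.1, beside a median of 3.63 for the 15769 genes that had a level and a length. Above that median were 71 of the 78 members. Of the 78 members, 50 were within 2-fold of the member median and 9 were below 0.25 times that median. Their upper quartile was 3.29 times the lower, beside 49.8 for all genes with a level and a length. For the assembly and translation factors described below, this ratio was smaller, with 2.65 and 2.43.

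Large subunit genes had the higher levels. Their median was 25.6 CPM per kb with quartiles of 12.6 and 32.7, and that of small subunit genes was 15.3 with quartiles of 7.99 and 21.9. The ratio of these medians was 1.67, and it was 1.26 with the longest transcript as the length and 1.33 in CPM with no division by length. The ranges overlapped widely, from 0.0443 to 71.9 CPM per kb for the large and from 1.71 to 54.7 for the small subunit. Of the 20 highest members, 15 were Mrpl and 5 were Mrps. At 10 CPM or more were 47 of 49 large and 24 of 29 small subunit genes.

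**Figure D1:**
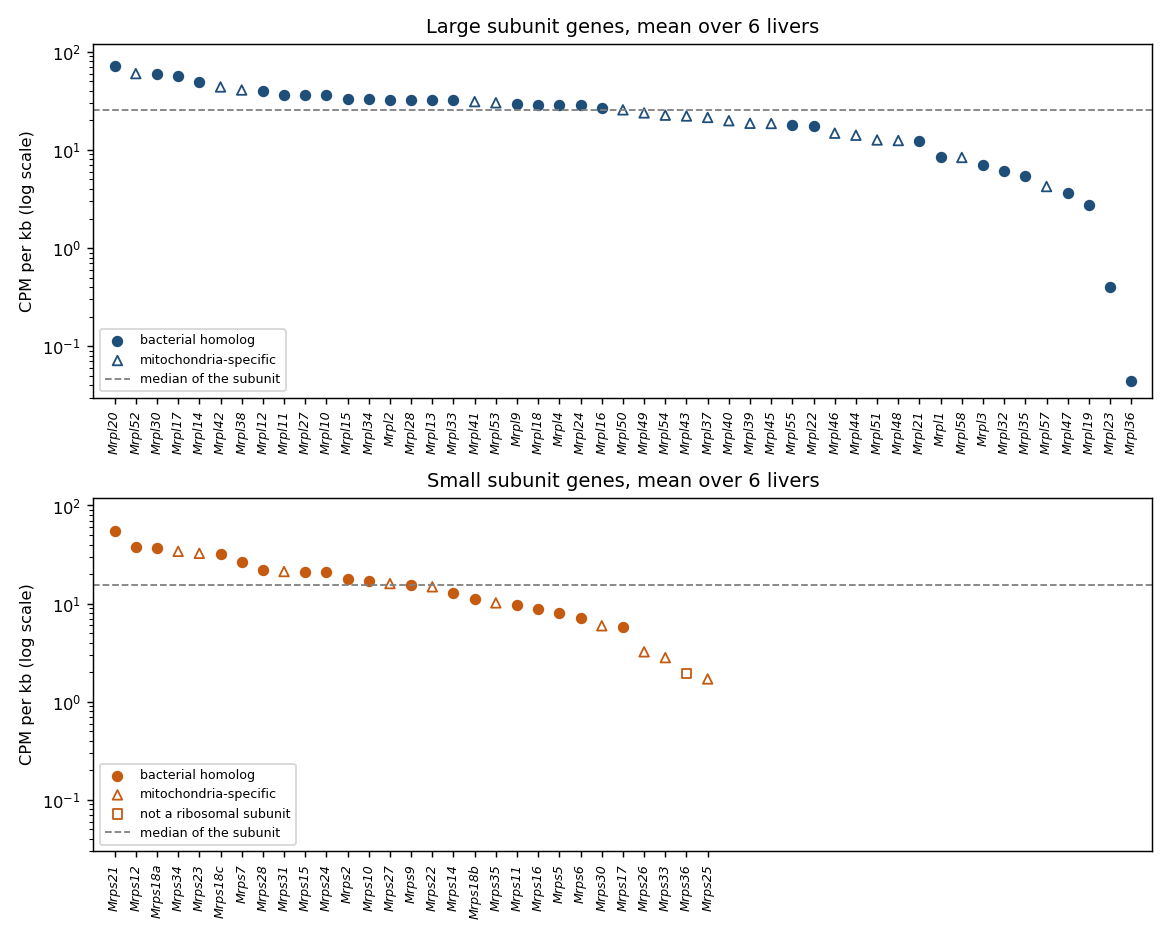
Level of each member in CPM per kb (log scale), ranked within the large (top) and small (bottom) subunit. Each symbol is the mean over 6 livers, filled circles mark proteins with a bacterial homolog, open triangles mitochondria-specific proteins, the open square Mrps36, and the dashed line is the subunit's median (25.6 and 15.3). Most members form a shallow slope, and Mrpl23 and Mrpl36 lie far below it.

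At the top of the large subunit stood Mrpl20, the counterpart of bacterial L20, a protein needed early in the building of the large subunit, with 35.5 CPM and 71.9 CPM per kb, 3.44 times the member median. Mrpl52, a mitochondria-specific protein, followed with 59.9 CPM per kb, Mrpl30 with 59.8, Mrpl17 with 56.5 and Mrpl14 with 48.8. Mrpl20 lies on the plus strand at chr4:155802878-155808831 (GRCm38) and Mrpl17 on the minus strand at chr7:105803782-105811087. The levels of Mrpl52 and Mrpl30 were nearly equal, and without a replicate error the order of such neighbours cannot be told apart. In plain CPM the highest member was Mrpl15 with 62.5, followed by Mrpl38 with 57.5, Mrpl50 with 54.1 and Mrpl12 with 52.6. Mrpl12, the homolog of the bacterial L7/L12 stalk protein that recruits translation factors, had 40.0 CPM per kb, and Mrpl10, which anchors this stalk, had 35.9.

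Among small subunit genes Mrps21 was highest with 22.1 CPM and 54.7 CPM per kb. Its transcripts were the shortest of all members, with a median of 405 bases. Mrps12, the homolog of the bacterial S12 protein at the decoding centre, had 37.8 CPM per kb, Mrps18a 36.5, Mrps34 34.1 and Mrps23 32.5. Mrps7, the homolog of a head protein of the bacterial small subunit, had the highest CPM of the small subunit with 52.3, which was 26.6 CPM per kb on its longer transcripts. The members nearest the median of the whole set were all named for the small subunit, with 21.2 CPM per kb for Mrps31, 20.9 for Mrps15 and 20.9 for Mrps24.

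The 48 members with a bacterial homolog had a median of 24.3 CPM per kb, and the 29 mitochondria-specific members had 18.7, a ratio of 1.30 that was 1.04 in CPM with no division by length. Within the large subunit the medians were 29.2 for 30 homologs and 21.4 for 19 mitochondria-specific genes. Within the small subunit they were 17.4 for 18 homologs and 12.5 for 10 mitochondria-specific genes. In CPM with no division by length, the medians of the large subunit were 28.1 for homologs and 25.04 for mitochondria-specific genes, and those of the small subunit were nearly equal, with 20.6 and 20.7. The higher median of homologs in the small subunit thus depended on the division by length, whereas the large subunit had the higher median in both classes on both scales.

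Several gene names do not state where the protein works. Mrps18a and Mrps30 are built into the large subunit although they are named for the small one, and they had 36.5 and 5.94 CPM per kb. Mrps18a belongs to a trio of related proteins of which Mrps18b, with 11.1 CPM per kb, and Mrps18c, with 32.0, sit in the small subunit. Mrpl58, a peptidyl-tRNA hydrolase that frees stalled ribosomes and is also a large subunit protein, had 8.37 CPM per kb. Mrps36 is now known as a component of the 2-oxoglutarate dehydrogenase complex and not as a ribosomal protein, and it had 1.24 CPM and 1.95 CPM per kb. With subunits assigned by structure, the ratio of the large to the small subunit median was 1.63. A few members were also chosen for RT-qPCR primers. Among these, Mrpl11 had 36.1 CPM per kb, Mrpl45, which holds the ribosome to the inner membrane, 18.6, Mrpl22 17.4, Mrps9 15.3 and Mrps5 7.99.

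The genes that were low per kb included some with few reads and some with long transcripts. In CPM, 7 members were below 10, 2 of the large and 5 of the small subunit. Mrpl36, the homolog of the small zinc-binding bacterial protein L36, was lowest with a mean normalized count of 0.656 per liver, or 0.0318 CPM and 0.0443 CPM per kb. Mrpl23, whose bacterial homolog lines the end of the peptide exit tunnel, had a mean normalized count of 5.80, or 0.281 CPM. Mrps36 followed with 1.24 CPM, Mrps33 with 2.02, Mrps17 with 4.95, Mrps6 with 6.07 and Mrps18b with 8.94. Mrps25, Mrpl19 and Mrps26 had 10.4, 13.6 and 13.8 CPM, below the members' lower quartile of 16.4 CPM, and 1.71, 2.72 and 3.23 CPM per kb, on transcripts with a median of 6073, 5000 and 4278 bases. These were the 3 members over 4000 bases. Mrpl47 had 3.64 and Mrpl57 4.23 CPM per kb. Over the 78 members, Spearman's rho of transcript length was 0.16 with CPM and -0.52 with CPM per kb, as a description across genes, and length is itself part of the second measure.

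**Figure D2:**
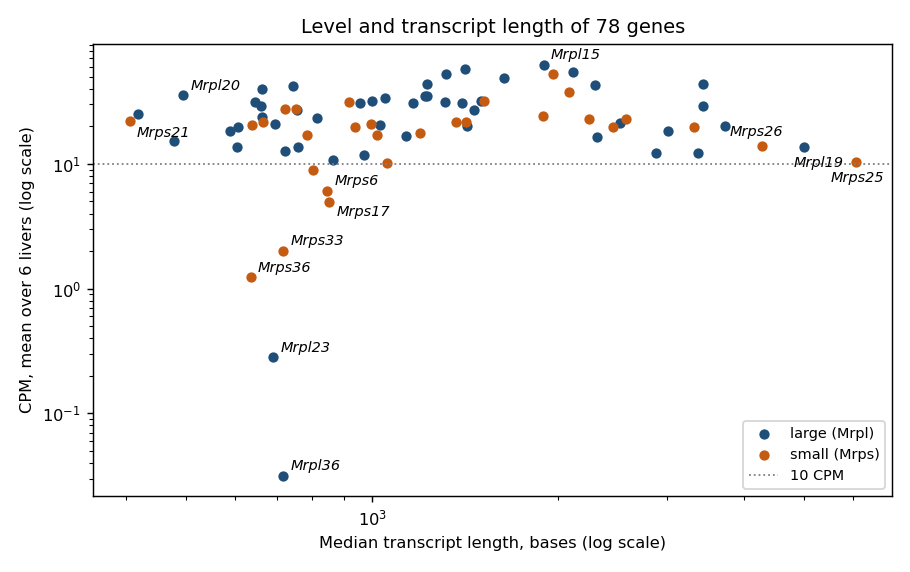
CPM of the 78 members (mean over 6 livers, log scale) against the median length of their protein-coding transcripts in bases (log scale), with large subunit genes in blue and small subunit genes in orange. Mrpl36, Mrpl23, Mrps36 and Mrps33 lie well under the dotted line at 10 CPM, whereas the longest genes, Mrps25, Mrpl19 and Mrps26, lie just above it.

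Processed pseudogenes are common for ribosomal proteins, and a read that fits both a gene and its copy can be lost or split, depending on the counting. How the authors treated such reads is not given in the sources used here. For each member, a single protein-coding transcript was therefore searched for windows of 50 bases that also occur in a gene annotated elsewhere by GENCODE. It was the transcript nearest the gene's median length, the shorter where equally near, and other transcripts were not searched. In Mrps35 it had 331 bases beside a median of 2246.5, and in Mrps5 424 beside 2452.5. No such window was found for 70 of 78 members. In Mrpl23, 76.4% of the windows were also in its pseudogene Mrpl23-ps1, and in Mrps33 16.2% were in the pseudogene Gm5776. The other 6 shared at most 1.27%. Mrpl36, the lowest member, shared none, nor did Mrps17. Mrps36 shared none over 50 bases. RefSeq names 3 pseudogenes for it, but the search was of GENCODE transcripts, and whether these include the 3 was not checked. The part of shared sequence in the low levels of Mrpl23 and Mrps33 was not tested, and both levels are uncertain. A search that found no shared window does not establish a low level. The level of Mrpl36, with a mean normalized count of 0.656, is therefore uncertain too, as are those of Mrps17 and Mrps36.

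Other genes overlapped exon bases of 30 members, on the opposite strand for 26. Overlap was not counted for genes outside the set, so whether these counts are unusual is not known. All exon bases of Mrpl53 were overlapped, by Gm42688 and Ccdc142os, 75.6% of those of Mrps25 lay opposite Nr2c2, 62.7% of Mrps34 were overlapped on the opposite strand, and 59.1% of Mrps18b lay opposite Gm16279. Whether the counting used strand is not given in the sources used here, so the levels of these genes may hold reads of their partners. Mrpl53 had only 2.16% of its exon bases overlapped on the opposite strand, so counting by strand would leave most of its overlap. For Mrpl36 only 2.58% of exon bases lay opposite another gene, Ndufs6.

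**Figure D3:**
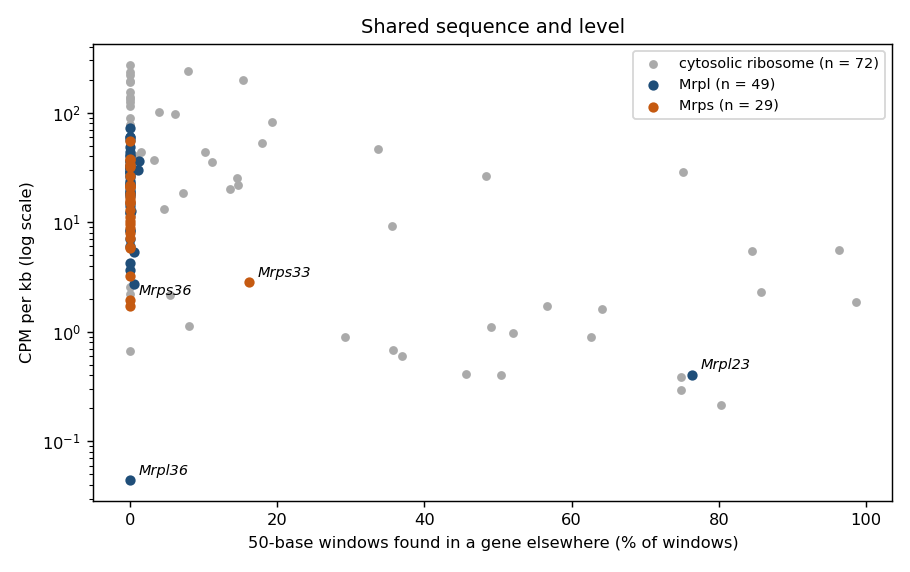
Level in CPM per kb (mean over 6 livers, log scale) against the percentage of 50-base windows of a transcript that also occur in a gene elsewhere, for members (blue and orange) and cytosolic ribosomal protein genes (grey). Members stand almost all at or near 0% and only Mrpl23 (76.4%) lies to the far right, while 13 of 72 cytosolic genes share 50% or more.

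The members were set beside the genes that work with them. Mitoribosomal proteins with other names had a median of 39.0 CPM per kb (n = 5), from 10.2 for Gadd45gip1 to 53.5 for Aurkaip1. Dap3, which is small subunit mS29, had 44.3 and Ptcd3 had 13.5. With these 5 added to their subunits, the ratio of the large to the small subunit median was 1.55. The 20 factors that assemble the mitoribosome, such as GTPases, helicases and rRNA methyltransferases, had a median of 6.56 CPM per kb. They ranged from 1.25 for Mrm1, a methyltransferase of the large ribosomal RNA, to 43.3 for Mterf3. The value of Mterf3 rests on a median transcript length of 452 bases, and in CPM it had 19.5, below Dhx30 with 25.9. The 10 translation factors had a median of 12.0, led by the initiation factor Mtif2 with 27.3 and the elongation factor Gfm1 with 26.7. The members' median of 20.9 was thus higher than that of the assembly and translation factors and lower than that of the other-named subunits. In CPM with no division by length the order was the same, but members and translation factors were closer, with 21.8 and 18.7. The assembly factors had 12.5 CPM and the other-named subunits 34.7. The mitochondrial rRNAs mt-Rnr1 and mt-Rnr2 had 531 and 782 CPM in these libraries, which were selected for poly-A RNA, so the values do not measure the amount of rRNA.

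**Figure D4:**
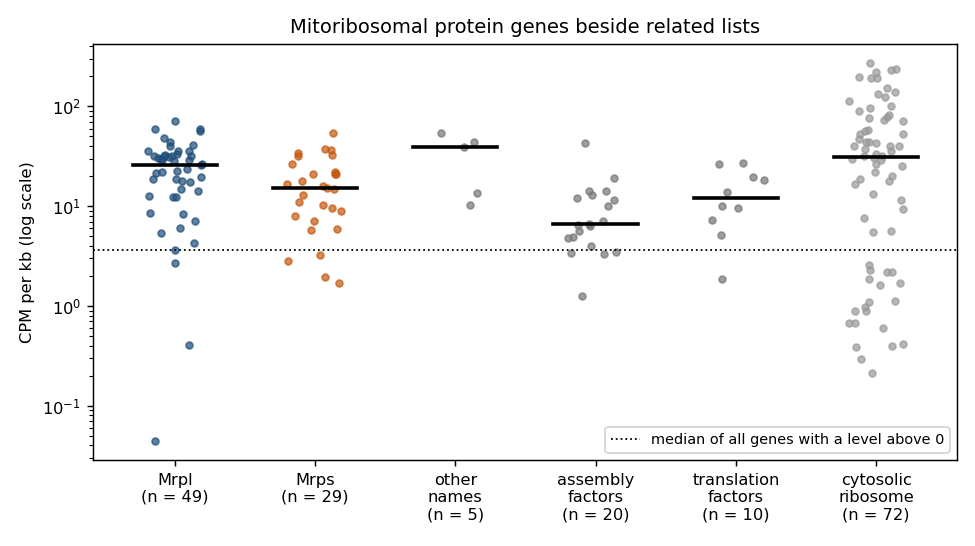
Levels in CPM per kb (log scale) of Mrpl and Mrps genes beside mitoribosomal proteins with other names, assembly factors, translation factors and cytosolic ribosomal proteins. Each point is 1 gene (mean over 6 livers), bars are medians (25.6, 15.3, 39.0, 6.56, 12.0 and 31.2), and the dotted line at 3.63 is the median of all genes with a level and a length.

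The members are spread over 17 chromosomes, with 11 on chromosome 11, 8 on 17, 7 on 6 and 6 on 7. A head-to-head protein-coding neighbour with its start within 1000 bases upstream, and with no overlap of the 5′ ends in GENCODE, was found for 18 of 78 members (23.1%), 12 of 49 large and 6 of 29 small subunit genes. This arrangement was found for 785 of 7369 protein-coding genes of at least 10 CPM (10.7%) and for 1491 of 21951 in all (6.79%). With overlapping 5′ ends counted as well, a definition added after seeing the data, the count was 33 of 78 members (42.3%), 24 of 49 large and 9 of 29 small, beside 17.4% and 10.9%. In 17 of the 18 pairs without overlap the starts were 26 to 207 bases apart, and Mrpl41 and Pnpla7 were 935 apart. Some partners serve protein synthesis or turnover, such as Sars2, the mitochondrial seryl-tRNA synthetase, 172 bases from Mrps12, Fau, which encodes a cytosolic ribosomal protein, 59 bases from Mrpl49, and Psma2, a proteasome subunit, 75 bases from Mrpl32. Others have different functions, such as the helicase Helq, 29 bases from Mrps18c, and the histone chaperone Hira, 175 bases from Mrpl40. Members with a neighbour and no overlap had a median of 23.2 CPM per kb and those without 18.6. Mrpl46 and Mrps11, one gene of each subunit, are themselves head to head on chromosome 7, 42 bases apart in RefSeq. They are not among the 18, because their 5′ ends overlap in GENCODE, where 16.4% of the exon bases of Mrps11 overlapped Mrpl46.

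Nuclear genes for mitochondrial proteins are known to carry promoter motifs for ETS factors such as GABP, for NRF1 and for YY1. RefSeq promoter windows (GRCm38.p6, 250 bases before to 50 after a start) were found for 69 members, 75 windows in all, and not for Mrpl38, Mrps34, Mrpl15, Mrpl13, Mrpl4, Mrpl54, Mrps28, Mrps35 and Mrpl19. Exact letters were searched on both strands. A match is a description of the sequence and not evidence of binding. The ETS letters CCGGAAGT were in 12 of 75 member windows (16.0%), in 8.83% of windows of protein-coding genes of at least 10 CPM and in 3.89% of all windows. The NRF1 letters CGCATGCG, which read the same on both strands, were in 7 (9.33%), beside 3.85% and 1.87%. The YY1 letters AAGATGGC were in 12 (16.0%), beside 5.03% and 2.75%. The TATA letters TATAAA were in 5 (6.67%), beside 7.23% and 13.6%. The windows of the members had a median GC content of 58.7%, those of protein-coding genes of at least 10 CPM 61.3% and all windows 52.7%.

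Both subunits carried the ETS letters, in 8 of 48 large and 4 of 27 small subunit windows. The NRF1 letters were in 6 of 48 and 1 of 27 windows, and the YY1 letters in 6 of 48 and 6 of 27. Of the 69 members, 29 carried at least 1 of these 3 motifs, 2 carried 2 and none carried all 3. The 12 ETS matches lay on either strand, 7 on that of the gene, and 10 of them began between 90 bases before and 1 base after the start. The following sites are shown because the letters lie beside the start, in genes of both subunits, with the ETS letters (or their reverse complement) in capitals.
Mrpl3 (chr9, plus strand): tgagaaacggaCCGGAAGTggcccggctgt
Mrpl33 (chr5, plus strand): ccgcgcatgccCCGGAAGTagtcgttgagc
Mrpl43 (chr19, minus strand): caaccccggaaCCGGAAGTcaccggttagt
Mrpl52 (chr14, plus strand): gggccacgcccACTTCCGGttcccttgctc
Mrps22 (chr9, minus strand): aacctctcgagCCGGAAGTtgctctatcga
Mrps26 (chr2, plus strand): gctccgcggccACTTCCGGgccgggcgcag

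In Mrps22 the motif occupies chr9:98601683-98601690 and begins 11 bases before the start, in Mrpl3 it occupies chr9:105053249-105053256, 19 bases before, and in Mrpl52 chr14:54426910-54426917, 1 base after. Mrpl52 was among the highest members and Mrps26 among the lowest per kb, so genes with this motif were found at both ends of the range per kb. This depended on the division by length, as the median transcript had 418 bases for Mrpl52 and 4278 for Mrps26. In CPM the 12 members with ETS letters lay between 10.8 and 43.3, at neither end of the range of all members, which was 0.0318 to 62.5. The 12 members with ETS letters had a median of 19.1 CPM per kb, and the 57 without had 18.7.

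The NRF1 letters lay up to 224 bases before the start and never after it, and Mrpl32 had a pair of them. They are shown for Mrpl17, among the highest members, for Mrpl22, and for Mrpl9, in capitals.
Mrpl17 (chr7, minus strand): ccgagttactgCGCATGCGtcctctgagac
Mrpl22 (chr11, plus strand): gcctcggactgCGCATGCGtatagtcagcc
Mrpl9 (chr3, plus strand): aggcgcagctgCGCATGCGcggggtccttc

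The motif in Mrpl17 occupies chr7:105811090-105811097, beginning 10 bases before the start. The 7 members with NRF1 letters had a median of 18.7 CPM per kb and the 62 without had 19.2. In CPM with no division by length the order turned, with a median of 42.0 for members with the letters and 21.4 for those without.

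The YY1 letters had a position of their own. In 8 of the 12 matches they lay 11 to 36 bases after the start, all on the strand of the gene, and in 6 of these 8 the ATG within the letters was an annotated start codon. Matches after the start on the gene's strand were in 8 of 75 member windows (10.7%), in 2.48% of windows of protein-coding genes of at least 10 CPM and in 0.865% of all windows. The 6 in which the ATG is the start codon are shown with the letters in capitals.
Mrpl35 (chr6, minus strand): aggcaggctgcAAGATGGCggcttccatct
Mrpl49 (chr19, minus strand): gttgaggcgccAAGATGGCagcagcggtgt
Mrps18a (chr17, plus strand): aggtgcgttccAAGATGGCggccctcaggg
Mrps24 (chr11, minus strand): cgcgccggcccAAGATGGCgtggtc
Mrps27 (chr13, plus strand): tggtgcgctccAAGATGGCggctcccatgg
Mrps7 (chr11, plus strand): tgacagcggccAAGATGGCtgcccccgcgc

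The motif in Mrps18a occupies chr17:46111015-46111022 and that in Mrps7 chr11:115604158-115604165. Mrps27 carried ETS letters as well, beginning 49 bases before its start. Members with YY1 letters had a median of 21.2 CPM per kb (n = 12) and those without 18.6 (n = 57). In CPM the medians were 24.6 with and 21.1 without YY1 letters, and 21.1 with and 21.7 without ETS letters.

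**Figure D5:**
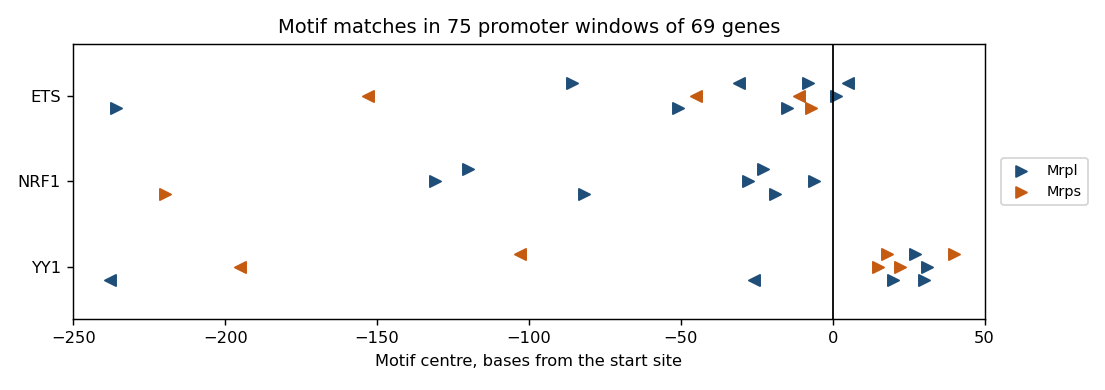
Distance of each motif match from the start site in bases (0 is the start), for ETS, NRF1 and YY1 letters in 75 promoter windows of 69 members. Blue triangles are Mrpl and orange Mrps genes, pointing right for the strand of the gene and left for the other strand (NRF1 letters read the same on both), and the 8 YY1 matches after the start all point right.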

How the data were processed

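Alignment by the authors was to mm10 (STAR), followed by StringTie assembly and DESeq2, all on Galaxy, per the methods and the submitters' processing notes. For these tools, no version, annotation or strand setting is given in the sources used here, nor how multi-mapped reads were treated. The deposited signal values are DESeq2 base means, normalized read counts averaged by the authors over all 6 livers. The other 5 measurement columns hold the authors' comparison of the groups (log2 fold change, its standard error, Wald statistic, p-value and adjusted p-value) and were not used. The tests planned on values per liver were not run, since the table has 0 columns of single livers.

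CPM is the base mean scaled so that the 27179 rows sum to 1000000. Transcript lengths, exon overlaps and start codons came from GENCODE vM21, and gene coordinates and promoters from RefSeq, both on GRCm38, matched by gene identifier and symbol for all 78 members. Shared 50-base windows were exact matches found with BLAST+ 2.17.0, and motifs were exact matches found with Python 3.11.15 and pandas 2.3.3. The motif search and the computing of window shares from given matches were tested on simulated data. The BLAST+ search itself was not tested. Genes were named by rule: the 5 highest and 5 lowest per kb in each subunit, the 3 nearest the median, those with RT-qPCR primers, and those whose name and place differ. Genes named beyond this rule were chosen after their values were seen. Members, lists, motifs and classes (bacterial homolog or not, from general knowledge) were chosen with earlier results of these data known.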

Additional observations from a re-analysis of the deposited data

How the results depend on the processing

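The ratio of the large to the small subunit median was above 1 under every alternative run. It was 1.67 as reported and 1.63 with subunits by structure, 1.55 with the other-named proteins added, 1.26 with the longest transcript, 1.33 with no division by length, 1.74 for members of at least 1 CPM and 1.53 for members of at least 10 CPM. It was 1.67 with the genes of the mitochondrial genome left out of the total and 1.67 for members without shared windows, an alternative chosen after seeing the data. The ratio of bacterial homologs to mitochondria-specific members was 1.30 as reported, 1.04 with no division by length and 1.30 without shared windows. ETS letters were in 16.0% of windows as reported, in 13.3% for the 150 bases nearest the start, and in 57.3% with the 6 letters CCGGAA, beside 28.7% for protein-coding genes of at least 10 CPM. The count of members with a head-to-head neighbour was 18 as reported and 33 with overlapping 5′ ends counted. For LSD1-LKO against Control, another normalization, no filter on low counts and leaving out single livers were not run. No paired analysis was possible because the table gives no value for a single liver. With 1 mean for each gene, neither the depth nor the spread of any level is known, and the lengths are those of annotated transcripts, not of those expressed in these livers.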

Other observations

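The cytosolic ribosomal protein genes, which translate the nuclear messages, had levels from 0.214 CPM per kb for Rpl13 to 273 for Rps15. Their median was 31.2 CPM per kb (n = 72), with quartiles of 2.26 and 74.4 beside 9.73 and 32.1 for the mitoribosomal members, and 13 of them were below 1 CPM. Of the 72, 40 shared at least 1 window of 50 bases with a gene elsewhere, as did 8 of 78 mitoribosomal members. The 13 cytosolic genes that shared 50% or more of their windows had a median of 1.62 CPM per kb, and the 32 that shared none had 57.2. Their ranges overlapped, from 0.167 to 23.2 CPM for the 13 and from 0.486 to 360 CPM for the 32. Rpl11 shared no window and had 0.486 CPM, and Rpl15 shared 75.2% and had 23.2 CPM. Spearman's rho of the shared percentage with CPM per kb was -0.60 over the 72 cytosolic genes and -0.26 over the 78 members, as a description across genes. The part of read assignment in these levels was not tested.

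Gapdh, a gene of glycolysis that liver expresses, was listed at 1.48 CPM. The part of read assignment in this level was also not tested, and the level is uncertain.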
